A study of Mus musculus with 72 samples.

Results

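Lung tumours of EGFR DEL19 transgenic mice were compared with lung tissue of mice in the same treatment group, which had received the control circuit CMV-scrR. The comparison took 8 of the 72 libraries of the series, 4 labelled as tumour and 4 labelled as lung, chosen by their labels alone. Every mouse of both groups carried the EGFR DEL19 genotype and had received doxycycline for 25 days, after which micro-CT was used to look for lung tumours. The CMV-scrR circuit, a DNA construct with the CMV promoter and a scrambled RNA in place of an siRNA, was then given into a vein at 10 mg/kg every 2 days for 7 injections, and tissue was taken on day 14. The lung samples therefore carried the transgene, the doxycycline and the circuit as the tumours did, and no lung of untreated mice enters the comparison. The labels give no age, sex, strain or transgene promoter, and do not say how many animals were used, whether a tumour and a lung with the same number came from 1 mouse, or how tumour was separated from the lung around it. Nothing in them says that the 4 libraries of a tissue came from separate animals, so the spread behind each p-value is that of the libraries and may be technical.

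EGFR is a receptor tyrosine kinase that passes growth signals to the RAS-MAPK and PI3K pathways when it binds ligands such as TGF-alpha, amphiregulin or epiregulin. Deletions in exon 19 of human EGFR leave the kinase active without ligand and are among the common driver mutations of human lung adenocarcinoma. In normal lung, type 2 alveolar cells secrete surfactant and renew the thin type 1 cells, which exchange gas with a dense capillary bed, while club and ciliated cells line the airways. Adenocarcinomas driven by EGFR in mice usually grow from the alveolar epithelium.

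Tumours had lower levels of genes of blood and lymphatic vessels, matrix, mesothelium, T and natural killer cells and MHC class I presentation than lung, while the main surfactant genes stayed high in both tissues. Mouse Egfr, Erbb2 and Erbb3 were lower in tumour. Genes encoded by mitochondrial DNA were higher in tumour, with the highest median of the 44 gene lists used here, and the chemokine gene Ccl6 and the proton pump gene Atp6v0d2 were also higher. Most cytosolic ribosomal protein genes and several p53 targets, Ccng1 among them, were higher too, relative to the total without mitochondrial genes, but not to the whole column. The libraries of the 2 tissues differed in 3 further ways that touch many genes, given next: in mitochondrial sequence, in the allocation of near-identical genes, and with transcript length.

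Mitochondrially encoded genes, whose symbols start with mt-, took 1.98%, 1.83%, 1.74% and 1.93% of the column total in lung libraries 1 to 4 and 69.8%, 63.1%, 70.1% and 71.4% in tumour libraries 1 to 4. The 2 tissues are separate deposited tables that were normalised apart, so each column was divided by its own total over mouse genes without mt- symbols and multiplied by 1000000. All levels below are these normalised values, given in the order of replicates 1 to 4. Even then 11 nuclear genes whose transcripts match mitochondrial transcripts, among them a run of pseudogenes on chromosome 1, took 0.246%, 0.1703%, 0.245% and 0.248% of the remaining total in lung and 34.3%, 24.2%, 44.2% and 45.5% in tumour. Tumour libraries held 15880 to 17077 genes above 0 and lung libraries 19605 to 19859. An approximate depth without mt- genes, taken as the total over the smallest recurring value, was 4480000 to 4620000 in tumour and 19060000 to 20380000 in lung, so low values are less precise in tumour. Tissue and table cannot be told apart in this design.

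**Figure D1:**
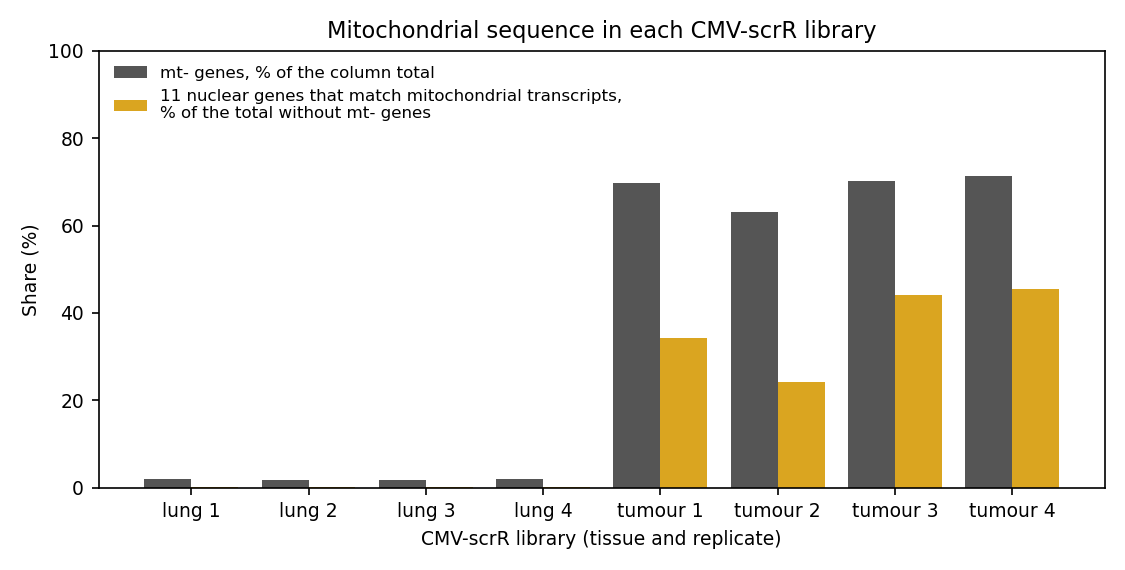
Share of mt- genes in the column total (grey bars, percent) and of 11 nuclear genes matching mitochondrial transcripts in the total without mt- genes (yellow bars, percent), for each of the 4 lung and 4 tumour libraries under CMV-scrR. The mt- share lies between 63.1% and 71.4% in tumour and below 2% in lung.

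With a linear model (limma) on log2(normalised value + 1) over 14554 genes, 875 were higher in tumour (6.01%) and 9189 lower (63.1%) at an adjusted p of 0.05, together 69.1% of the genes tested. The median log2 difference of all genes, tumour minus lung, was -0.96 with the 11 matching genes inside the totals. It was -0.12 when libraries were scaled by the median of ratios, -0.35 when predicted and clone names were left out of the total, and -0.38 when the 11 matching genes were left out. Because of this shift a gene is called higher or lower here only if it passed in the same direction under all 4 of these scalings, which held for 875 higher genes (6.01%) and 4064 lower genes (27.9%), together 33.9%. Of these, 396 and 2737 differed by at least 1 log2 unit under each scaling. Values of other genes are given without a direction. Counts of called genes in each list below are to be read beside these shares of all genes, 6.01% higher and 27.9% lower. Differences are in log2 units ± SE with 4 libraries a tissue, tumour minus lung, and are read against the median of -0.96. Dividing by the whole column, mt- genes included, moved that median to -2.21, and only 135 of the 875 higher genes then kept their call, against all 4064 lower genes. A shift downwards favours lower calls, so the latter count is no check on them. Of the genes named below as higher, Akap5, Aen, Aldoa, Bax, Bnip3, Ccnd1, Cdkn1a, Cox5a, Cox6c, Dnaja1, Eda2r, Hspe1, Krt18, Lgals3, Rpl19, Rps20, Sox9, Tpi1, Trem2 and Zmat3 had negative differences on that whole-column scale, and Etv4, Ccng1, Alb, Ereg, Gdf15, Onecut2 and Fabp4 stayed positive but lost their calls. The 4 tumour libraries lay wholly above lung for 848 genes (5.83%) and wholly below for 8451 (58.1%).

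Some genes with a near-identical copy in the genome were placed on different members of the pair in the 2 tables, which makes their differences uncertain. The ribosomal protein gene Rps7 and its pseudogene Gm6472 match at 99.4% of 651 bases, and Rpl29 and its pseudogene Gm13841 at 99.4% of 483 bases. The cytochrome oxidase gene mt-Co1 and the chromosome 1 pseudogene Gm29216 match at 99.8% of 483 bases, and mt-Co2 and Gm28661 at 100% of 681 bases. These mitochondrial pairs did not switch members between the tables. Gm29216 held at most 0.0169% of the sum with mt-Co1 in lung and 2.88% to 4.81% in tumour. Gm28661 held 70.7% to 85.9% of the sum with mt-Co2 in lung and 79.6% to 86.7% in tumour. The windows below, of 30 bases of each GENCODE M21 transcript with its gene's position on GRCm38, are shown because so few bases tell the members apart. Capitals mark the bases that differ within a pair.
Rps7, chr12:28630854-28635953, minus strand: aagatcgTgaagcccaatggcgagaagccG
Gm6472, chrX:152909505-152910155, minus strand: aagatcgGgaagcccaatggcgagaagccA
Rpl29, chr9:106429454-106431568, plus strand: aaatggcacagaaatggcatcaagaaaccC
Gm13841, chr5:115801677-115802159, minus strand: aaatggcacagaaatggcatcaagaaaccA
mt-Co1, chrM:5328-6872, plus strand: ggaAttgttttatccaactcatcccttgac
Gm29216, chr1:24615706-24616197, minus strand: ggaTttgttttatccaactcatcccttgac
mt-Co2, chrM:7013-7696, plus strand: atggcctacccattccaacttggtctacaa
Gm28661, chr1:24614885-24615565, minus strand: atggcctacccattccaacttggtctacaa

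Rps7 had 351, 352, 349 and 376 in lung and 8.08, 11.4, 8.46 and 9.49 in tumour, a difference of -5.12 ± 0.15 (SE), while Gm6472 held at most 0.0391% of the sum of both in lung and 96.9% to 97.4% in tumour. The sum itself was 349 to 377 in lung and 309 to 367 in tumour. Rps2 had 507, 495, 560 and 569 in lung and 0.561, 0.8996, 1.04 and 0.824 in tumour, the lowest difference of any gene the naming rule gave (-8.19 ± 0.16), and its processed copy Rps2-ps10 took 0.149% to 0.279% of the sum in lung and 99.9% to 99.95% in tumour. The sum of Rps2 and Rps2-ps10 was 497 to 570 in lung and 1003 to 1108 in tumour, so it was higher in tumour. Rpl29 had 203, 191, 194 and 223 in lung and 7.297, 3.81, 4.36 and 2.603 in tumour, and Gm13841 took up to 0.0217% of the sum in lung and 89.95% to 95.6% in tumour. That sum was 191.5 to 223 in lung and 58.9 to 82.4 in tumour, so it stayed lower in tumour. The glycolytic gene Eno1 and the chromatin gene Hmga1 shifted in part, with their copies Eno1b and Hmga1b at 43.4% to 51.9% and at 60.95% to 79.6% of the sums in tumour. The same shift stood in all 12 tumour and all 12 lung libraries of the 3 circuits for Rps2, Rps7 and Rpl29, so it moved with the table as well as with the tissue. Of the tested genes outside the mitochondrion, 1504 have such a copy, with 274 higher and 291 lower, and 13037 have none, with 588 higher and 3773 lower. Among the 29 genes outside the mitochondrion that differed by more than 5 log2 units, 17 have a copy.

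**Figure D2:**
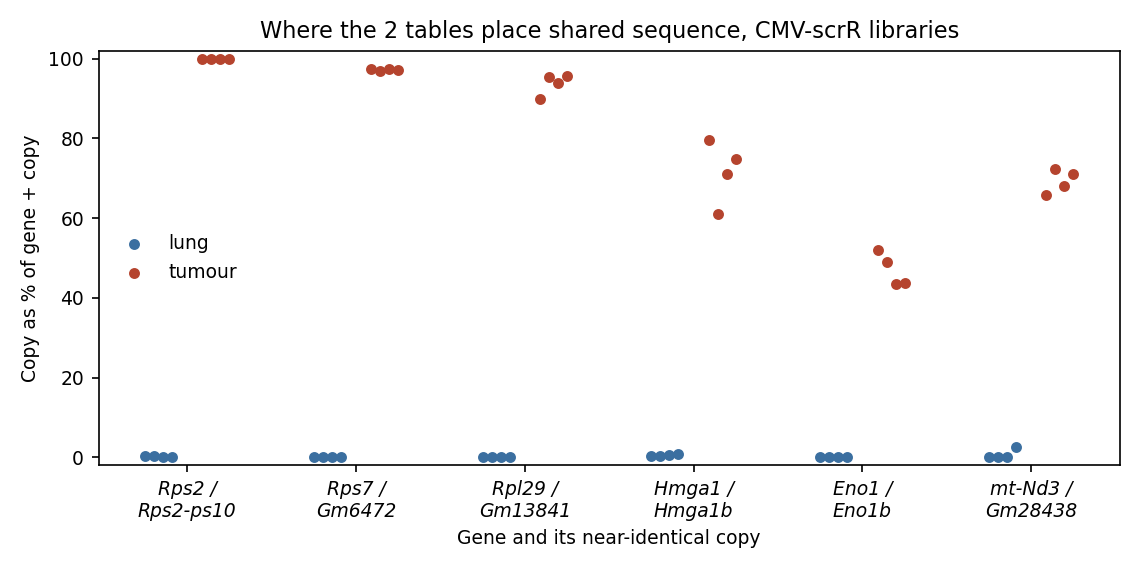
Share of the near-identical copy in the sum of gene and copy (percent) for 6 pairs, 1 point per CMV-scrR library, lung in blue and tumour in red. For Rps2, Rps7 and Rpl29 the copy holds under 1% in lung and 89.95% or more in tumour.

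Transcript length also moved with the difference. Over 14533 genes with a length, longer transcripts had lower tumour minus lung differences, with a Spearman rho of -0.31 across genes of the same 8 libraries, which are not independent. The median difference was 0.24 for the 687 genes under 1000 bases, -0.51 between 1000 and 2000, -0.96 between 2000 and 4000, -1.18 between 4000 and 8000, and -1.33 for the 864 genes of 8000 bases or more. Of the shortest genes 37.4% were higher in tumour and 8.88% lower, and of the longest 1.5% were higher and 40.6% lower. When a smooth trend with length was taken out of each library, 834 of the 875 higher and 3079 of the 4064 lower genes kept their call. Taking it out also moved the median of all genes from -0.96 to 0.02, with 3754 genes higher. Higher calls were thus favoured, and their retention is not a check on length alone. The part of length in any single result was not tested beyond this step. Counts that keep their call without the trend are given beside the lists where they fall.

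**Figure D3:**
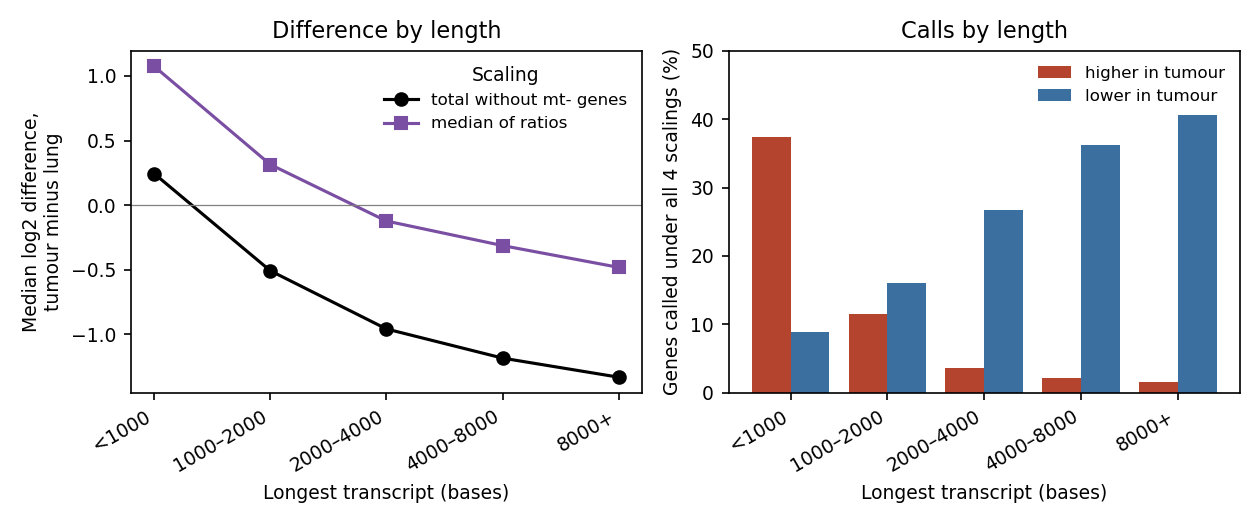
Left, median log2 difference (tumour minus lung) of tested genes in 5 classes of longest transcript (bases), under 2 scalings. Right, percent of each class higher (red) or lower (blue) in tumour under all 4 scalings, with 37.4% of the shortest genes higher and 40.6% of the longest lower.

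The transgene's human EGFR transcript had 340, 255, 363 and 305 in the tumour libraries. The lung table used here holds no row for it, so human EGFR was not compared between the tissues. Mouse Egfr (chr11:16752203-16918158) had 31.4, 32.5, 36.2 and 28.3 in lung and 3.24, 3.24, 4.66 and 1.97 in tumour, a difference of -2.98 ± 0.23 with an adjusted p of 9.63e-06. All 4 tumour libraries were below all lung libraries. Erbb2 (HER2), the preferred partner of EGFR, had 66.4, 74.9, 57.8 and 65.6 in lung and 15.7, 6.29, 7.18 and 9.77 in tumour and differed by -2.72 ± 0.26. Erbb3, a partner with little kinase activity of its own, had 77.9, 86.98, 63.2 and 66.7 in lung and 20.6, 8.45, 12.3 and 25.7 in tumour and differed by -2.18 ± 0.31, and its call ended with the length trend removed (adjusted p = 0.0563). Erbb4 was near 0 in both tissues and was not tested. All 3 tested receptor genes were thus lower, with a median of -2.72, and 2 of them kept the call without the length trend.

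Among EGFR family ligands and the proteases that shed them, 1 of 10 tested genes was higher and 6 were lower in tumour, beside 6.01% and 27.9% of all genes. The median difference was -1.52. Epiregulin (Ereg) had 0.862, 0.629, 1.29 and 1.18 in lung and 22.95, 0, 17.6 and 13.7 in tumour, and was high in 3 tumours and listed at 0 in replicate 2. Its difference of 2.19 ± 0.86 passed (adjusted p = 0.0438) but lost its call with a pseudocount of 0.1 (adjusted p = 0.222), without any 1 lung library, or without tumour replicate 1, 3 or 4 (adjusted p from 0.0706 to 0.118). Amphiregulin (Areg) showed the same split, with 2.02, 4.56, 2.05 and 5.05 in lung and 16.7, 1.104, 17.3 and 20.3 in tumour, and did not pass (adjusted p = 0.0945), but passed without tumour replicate 2 (adjusted p = 0.000279). Heparin-binding EGF (Hbegf) had 54.6, 54.5, 52.7 and 59.99 in lung and 17.6, 15.6, 15.5 and 19.5 in tumour and was lower, with a difference of -1.65 ± 0.15. Nrg2, which encodes a neuregulin, had 7.17, 7.68, 7.803 and 8.15 in lung and 0, 1.596, 0.4204 and 0.205 in tumour and was lower in all 4 tumours. Adam17, the protease that releases several of these ligands from the membrane, had 95.1, 106, 123 and 111 in lung and 21.1, 13.4, 18.8 and 14.8 in tumour and differed by -2.62 ± 0.18 (adjusted p = 5.28e-06).

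Few feedback inhibitors and targets of EGFR and MAPK signalling were called. Of 19 tested, 2 were higher and 3 were lower, beside 6.01% and 27.9% of all genes. The other 14 did not pass under all scalings, and the median was -1.10, close to that of all genes. Cyclin D1 (Ccnd1), which drives entry into S phase, had 261, 294, 303 and 308 in lung and 494, 722, 537 and 376 in tumour and was higher by 0.83 ± 0.20 (adjusted p = 0.00396), with all tumours above all lungs. Etv4, an ETS factor induced by MAPK signalling, had 0.946, 2.28, 0.4 and 0.551 in lung and 2.21, 3.38, 9.03 and 10.9 in tumour and was higher by 1.73 ± 0.45, with the highest values in tumour replicates 3 and 4, and its adjusted p was 0.0545 without them. Lrig1, which promotes EGFR breakdown, had 27.3, 31.9, 26.4 and 31.9 in lung and 5.31, 10.3, 0.808 and 1.54 in tumour and was lower, with a difference of -2.83 ± 0.51. The receptor gene Il6ra was lower too, with 101, 85.5, 136 and 78.6 in lung and 22.2, 12.2, 4.24 and 4.82 in tumour, and so was the immediate early gene Egr1, with 107, 104, 57.4 and 75.8 in lung and 28.1, 32.1, 17.3 and 23.8 in tumour. Dusp6, a phosphatase that switches off ERK, had 131, 114, 143 and 113 in lung and 154, 114, 160 and 109 in tumour, which overlap entirely (0.08 ± 0.17). The direction for Dusp6 depended on scaling, since its difference was 1.04 by the median of ratios (adjusted p = 0.0021) and -1.55 by the whole column total.

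Surfactant genes stayed at high levels in tumour, and the type 2 alveolar cell list followed the median of all genes. Of its 16 genes none was higher and 3 were lower, beside 6.01% and 27.9% of all genes, and 13 did not pass under all scalings, with a median of -0.97. Summed, the list gave 17434 to 23268 in lung and 7476 to 14094 in tumour. Surfactant protein C (Sftpc, chr14:70520949-70524081), the defining type 2 marker, had 10801, 12810, 9666 and 12856 in lung and 4316, 4706, 9453 and 8246 in tumour, with all tumours below all lungs and replicate 3 the nearest to them. Its difference was -0.86 ± 0.31 in the main scaling and 0.11 by the median of ratios, so Sftpc was not called. The lung libraries held Sftpc, Ager and Scgb1a1 as their label implies, and the tumour libraries held Sftpc and the human EGFR transcript. Sftpa1 had 2372, 2895, 2184 and 2896 in lung and 963, 1044, 1115 and 793 in tumour and differed by -1.40 ± 0.18, but missed the threshold by the median of ratios (adjusted p = 0.0775). The lipid transporter gene Abca3, needed for lamellar bodies, had 535, 631, 531 and 593 in lung and 102, 79.7, 74.2 and 78.1 in tumour and was lower, with a difference of -2.77 ± 0.15 (adjusted p = 1.15e-06). The phosphate transporter gene Slc34a2, with 1632, 2068, 1461 and 1915 in lung and 365, 225, 507 and 363 in tumour, and Lpcat1, which makes surfactant lipid, with 393, 444, 337 and 457 in lung and 102, 63.8, 95.3 and 104 in tumour, were lower as well. These 3 kept their calls with the length trend removed, and the 4 tumours lay well apart from the 4 lungs in each.

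The type 1 alveolar list was split, with 1 of 14 genes higher and 6 lower, beside 6.01% and 27.9% of all genes, 7 not passing, and a median of -1.41. Ager, a receptor abundant on type 1 cells, had 1885, 2071, 1919.8 and 2012 in lung and 606, 381, 497 and 678 in tumour and was lower, with a difference of -1.90 ± 0.19. Basement membrane collagen Col4a3 had 233, 296, 209.5 and 216 in lung and 27.1, 20.1, 15.6 and 23.2 in tumour and was lower, with a difference of -3.42 ± 0.19, and the proteoglycan gene Spock2 had 480.3, 659, 535 and 577 in lung and 45.02, 69.6, 27.4 and 42.9 in tumour and was lower, with a difference of -3.64 ± 0.25. Igfbp2 (-3.42 ± 0.32) and Gprc5a (-2.84 ± 0.22) were lower in every tumour. Akap5, a kinase anchor, was the 1 member that was higher, with 485, 453, 313 and 376 in lung and 858, 977, 445 and 729 in tumour and a difference of 0.85 ± 0.25 (adjusted p = 0.0138), although tumour replicate 3 overlapped lung. Hopx, with 674, 630, 645 and 619.8 in lung and 708, 974, 473 and 830.1 in tumour, and Rtkn2, with 249.8, 240, 217 and 199 in lung and 308, 269, 116 and 239.6 in tumour, overlapped between the tissues.

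The main club cell genes were lower in tumour and varied between tumours. Of 10 club cell genes 2 were higher and 4 lower, beside 6.01% and 27.9% of all genes, with a median of -2.32. The list summed to 9391 to 13547 in lung, to 2242 and 4162 in tumour replicates 1 and 2, and to 614 and 596 in replicates 3 and 4. The secretoglobin gene Scgb1a1, the defining club cell product, had 9066, 8546, 7295 and 10647 in lung and 1853, 3311, 451 and 482 in tumour and was lower, with a difference of -3.03 ± 0.59 (adjusted p = 0.00137). The cytochrome gene Cyp2f2 had 1829, 1854, 1670 and 2230.1 in lung and 260.5, 340, 35.8 and 22.8 in tumour and was lower, with a difference of -4.33 ± 0.78. By contrast 2 secretory genes of larger airways were near 0 in lung and present in tumour. Scgb3a1 had 0.838, 0.785, 0.493 and 1.04 in lung and 9.21, 127, 31.9 and 12.2 in tumour, and Bpifa1 had 0.422, 0.0439, 0.0744 and 0.385 in lung and 6, 36.5, 14.4 and 3.44 in tumour, both highest in tumour replicate 2. Of 12 ciliated cell genes 5 were lower, beside 27.9% of all genes, and none higher, with a median of -1.62, and 2 kept the call without the length trend. The ciliary factor gene Foxj1 had 87.8, 88.8, 70.9 and 105 in lung and 24.9, 41.3, 7.58 and 8.06 in tumour and was lower, with a difference of -2.37 ± 0.47, and the axoneme gene Hydin was lower, with a difference of -2.78 ± 0.27.

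Genes of epithelial identity and tumour progression gave 4 higher, 3 lower and 5 not passing of 12 tested, with a median of 0.37, beside 6.01% higher and 27.9% lower among all genes. E-cadherin (Cdh1), which joins epithelial cells, had 417, 488, 373 and 475 in lung and 137, 77.1, 99.1 and 68.3 in tumour and was lower, with a difference of -2.23 ± 0.22 (adjusted p = 3.00e-05). Galectin-3 (Lgals3) had 170.4, 112, 143 and 157 in lung and 261, 213, 216 and 408 in tumour and was higher in all 4 tumours by 0.87 ± 0.23. Sox9, a developmental factor, had 0.912, 1.26, 1.08 and 0.785 in lung and 1.299, 2.89, 4.01 and 2.83 in tumour and was higher by 0.85 ± 0.26 at low levels, with an adjusted p of 0.0918 without tumour replicates 3 and 4. Keratin 18 (Krt18) had 76.4, 82.8, 58.6 and 83.9 in lung and 130, 70.98, 189.6 and 219 in tumour, was low in tumour replicate 2 and higher by 0.90 ± 0.32. Its adjusted p of 0.0292 rose to between 0.0556 and 0.082 without lung replicate 1 or 3 or tumour replicate 3 or 4, and to 0.248 without both of the latter. Onecut2 was the fourth higher gene, with 0.507, 0.944, 0.361 and 0.0491 in lung and 1.08, 2.23, 2.23 and 1.96 in tumour. Of 8 mesenchymal genes 3 were lower, beside 27.9% of all genes, Fn1 (-3.58 ± 0.18), Snai1 (-3.31 ± 0.31) and Cdh2 (-2.97 ± 0.40), while vimentin (Vim) had 806, 909.6, 886 and 964 in lung and 885, 1339, 696 and 556 in tumour.

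**Figure D4:**
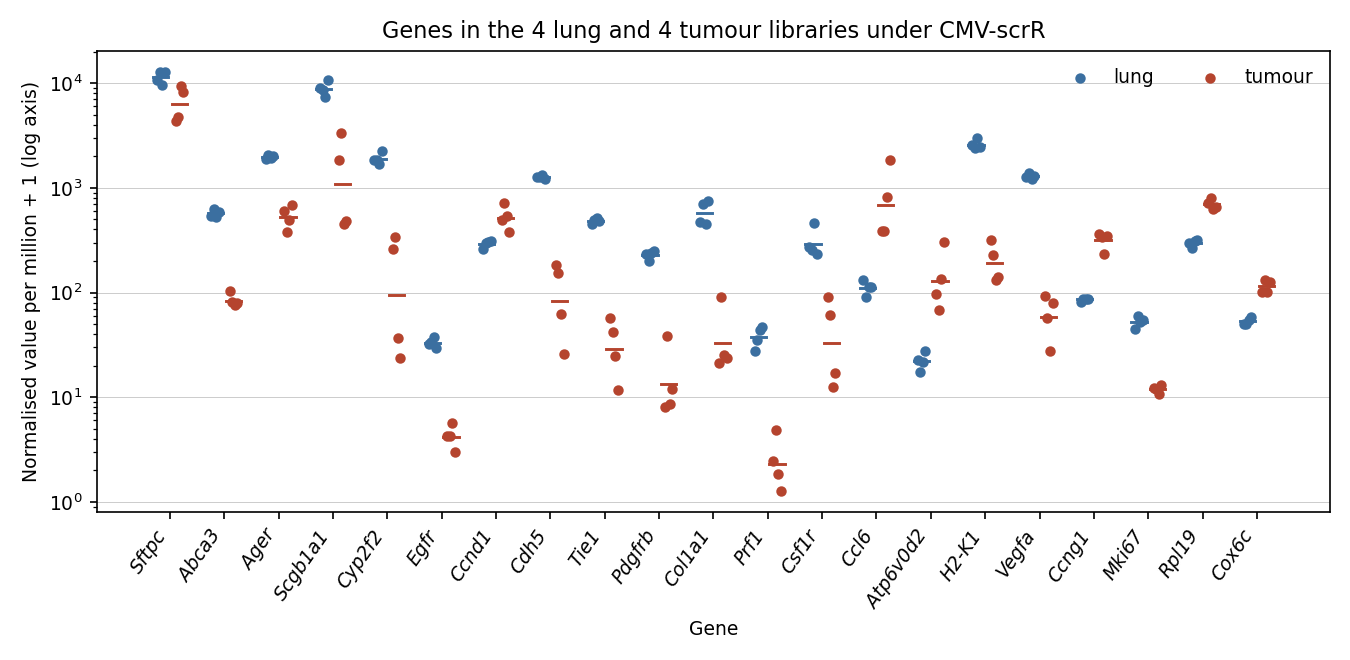
Levels of 21 genes in the 4 lung (blue) and 4 tumour (red) libraries under CMV-scrR, as normalised value + 1 on a log axis; bars mark the mean of the log values. Tie1, Vegfa and Egfr lie below every lung library in all 4 tumours, and Ccng1 and Rpl19 lie above.

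Endothelial genes were far lower in tumour. Of 15 general endothelial genes 10 were lower, none was higher and the median was -3.003. Cdh5 (VE-cadherin), the junction protein of endothelium, had 1278, 1268, 1336 and 1202 in lung and 182, 154, 61.9 and 24.6 in tumour and was lower, with a difference of -3.95 ± 0.53 (adjusted p = 0.000157). The angiopoietin receptor family gene Tie1 had 453, 490.4, 512 and 477 in lung and 55.5, 41.3, 23.8 and 10.7 in tumour and was lower, with a difference of -4.07 ± 0.41, and the guidance receptor gene Robo4 had 124, 129, 155 and 134 in lung and 12.03, 11.9, 3.64 and 4.54 in tumour and was lower, with a difference of -4.07 ± 0.34. Pecam1 (CD31) had 1170.2, 1197, 1376 and 1085 in lung and 257, 289, 108 and 61.1 in tumour. Tumour replicates 3 and 4 were the lowest in each of these 4 genes, with list sums of 1035 and 593 beside 1999 and 2083 in replicates 1 and 2 and 6943 to 8044 in lung. Erg, an endothelial transcription factor, did not follow them, with 155, 158, 157 and 147 in lung and 312, 359, 195 and 120.3 in tumour and a difference of 0.55 ± 0.30 (adjusted p = 0.128), which passed as higher under the other 3 scalings and without tumour replicate 4. In these bulk samples, fewer cells of a type and less RNA of that type per cell cannot be told apart.

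Of 14 lung capillary genes 10 were lower and none higher (median -2.35), among them Plvap, a component of endothelial diaphragms, with 832, 964, 1073 and 953 in lung and 129, 159.6, 45.4 and 17.9 in tumour. Of 7 lymphatic genes 6 were lower (median -2.28), among them Flt4 (VEGFR3) with 75.8, 82.1, 91.1 and 79.5 in lung and 13.6, 16.9, 3.34 and 2.17 in tumour. Vegfa, the main growth factor for blood vessels, had 1279, 1394, 1218 and 1282 in lung and 92.2, 56.2, 26.5 and 78.8 in tumour at chr17:46016993-46032369 and was lower, with a difference of -4.47 ± 0.33 (adjusted p = 7.50e-06). All 4 tumour values of Vegfa lay far below the lowest lung value. Of these vessel lists 10, 9 and 5 of the lower genes kept the call without the length trend.

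Matrix genes and part of the stromal genes were lower as well. Of 17 matrix genes 14 were lower and none higher, with a median of -2.83, and 13 kept the call with the length trend removed. Collagen I (Col1a1) had 470.3, 702, 449.6 and 744 in lung and 20, 89.7, 24.4 and 22.5 in tumour and was lower, with a difference of -4.14 ± 0.43 (adjusted p = 4.01e-05). Elastin (Eln), which gives the lung its recoil, had 798, 2216, 1223 and 1914 in lung and 63.5, 36.3, 134 and 167 in tumour and was lower, with a difference of -4.05 ± 0.48. Of 13 fibroblast genes 6 were lower (median -1.96), beside 27.9% of all genes, with the growth factor receptor gene Pdgfra at 347, 361, 347 and 336 in lung and 10.04, 85.5, 14.1 and 15.9 in tumour and the collagen gene Col13a1 lower at -4.002 ± 0.46. Of 12 smooth muscle and pericyte genes 6 were lower (median -2.04), beside the same share of all genes, with Pdgfrb at 233, 198, 237 and 249 in lung and 7.14, 37.4, 7.58 and 11.1 in tumour and Notch3 lower at -4.10 ± 0.39. Tumour replicate 2 stood above the other tumours in these lists, with fibroblast sums of 3775 beside 550 to 966, and smooth muscle sums of 762 beside 166 to 230. Mesothelial genes, which mark the pleural lining, were lower in 6 of 8 cases with a median of -3.67. Upk3b had 83.3, 126, 52.4 and 82.9 in lung and 5.198, 3.78, 1.11 and 0.653 in tumour and mesothelin (Msln) had 62.7, 109, 44.4 and 71.99 in lung and 12.5, 3.504, 1.71 and 3.53 in tumour.

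Lymphocyte genes were lower in tumour. Of 15 T and natural killer cell genes 11 were lower and none higher, with a median of -2.73, and all 11 kept the call without the length trend. Perforin (Prf1), which lyses target cells, had 26.7, 34, 42.7 and 45.7 in lung and 1.48, 3.86, 0.867 and 0.275 in tumour and was lower, with a difference of -4.02 ± 0.39 (adjusted p = 2.78e-05). Granzyme A (Gzma) had 63.8, 95.1, 105 and 129 in lung and 4.32, 28.8, 0 and 0.442 in tumour, with tumour replicate 2 above the others. The cytotoxic coreceptor gene Cd8a had 44.9, 23.9, 22.98 and 27.3 in lung and 3.798, 0, 0.217 and 4.12 in tumour. Of 14 B and plasma cell genes 6 were lower and none higher (median -1.67), beside 27.9% and 6.01% of all genes. The immunoglobulin heavy chain gene Ighm did not pass, with 138, 145, 139 and 154 in lung and 372, 67.3, 9.83 and 18.4 in tumour, and was highest in tumour replicate 1. Of 9 dendritic cell genes 2 were lower (median -1.27), and of 10 neutrophil genes 4 were lower (median -1.61), beside 27.9% of all genes. The gelatinase gene Mmp9, a neutrophil product, had 71.6, 16.95, 37.6 and 34.4 in lung and 1.599, 0.656, 0.164 and 0.804 in tumour and was lower, with a difference of -4.40 ± 0.41, with lung replicate 1 the highest.

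The macrophage lists gave shares near those of all genes, 6.01% higher and 27.9% lower, with single genes far from their median. Of 13 general macrophage genes 4 were lower and none higher, with a median of -0.32. The survival receptor gene Csf1r had 269.9, 251, 458 and 233 in lung and 89.2, 59.7, 11.5 and 16.1 in tumour and was lower, with a difference of -3.15 ± 0.58 (adjusted p = 0.001). The complement gene C1qa had 71.2, 92.2, 63.8 and 80.05 in lung and 120, 142, 25.5 and 40.4 in tumour, above lung in tumour replicates 1 and 2 and below it in replicates 3 and 4, and C1qb and C1qc followed the same pattern. The difference for C1qa was -0.22 ± 0.49 over all libraries and 0.77 without replicates 3 and 4 (adjusted p = 0.00517). Of 13 alveolar macrophage genes 1 was higher and 3 lower (median -0.97). The fatty acid binding protein gene Fabp4 had 6.41, 3.77, 5.17 and 4.53 in lung and 7.06, 19.1, 27.3 and 51.5 in tumour and was higher by 1.91 ± 0.49 (adjusted p = 0.00604). Of 15 genes of lipid-handling macrophages 2 were higher and 2 lower (median -0.13). Atp6v0d2 (chr4:19876841-19922605), a proton pump subunit of macrophages and osteoclasts, had 21.5, 16.4, 20.5 and 26.8 in lung and 95.9, 67.4, 135 and 303 in tumour and was higher by 2.55 ± 0.40 (adjusted p = 0.000387), the most in tumour replicate 4. Trem2, a lipid-sensing receptor, had 3.47, 2.61, 2.63 and 4.52 in lung and 6.22, 10.03, 4.74 and 8.73 in tumour and was higher by 0.95 ± 0.27 at low levels. The checkpoint ligand gene Cd274 (PD-L1) had 314, 77.6, 294 and 69.2 in lung and 18.4, 17.1, 13.8 and 17.2 in tumour and was lower, with a difference of -3.10 ± 0.48.

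Of 21 chemokine and cytokine genes 1 was higher and 4 were lower, beside 6.01% and 27.9% of all genes, with a median of -0.60. Ccl6, which attracts myeloid cells, had 131, 89.7, 113 and 113 in lung and 388, 389, 823 and 1826 in tumour and was higher by 2.63 ± 0.44 (adjusted p = 0.000587), again the most in tumour replicate 4. Csf1, the ligand of Csf1r, had 114, 99.2, 107 and 85.9 in lung and 13.4, 13.1, 1.93 and 3.11 in tumour and was lower, with a difference of -3.86 ± 0.49. The chemokine genes Cxcl12 (-2.29 ± 0.36) and Cxcl14 (-3.52 ± 0.36) were lower in every tumour, and Ccl4 was the fourth lower gene, at low levels.

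Genes of MHC class I presentation were lower in tumour. Of 11 tested 8 were lower and none higher, with a median of -2.44, and all 8 kept the call without the length trend. H2-K1, a classical class I heavy chain, had 2561, 2422, 2985 and 2437 in lung and 318, 226, 129.8 and 140.3 in tumour and was lower, with a difference of -3.76 ± 0.27 (adjusted p = 6.89e-06). Tap1, which carries peptides into the endoplasmic reticulum, had 506, 292, 569 and 306 in lung and 49.9, 28.2, 6.96 and 11.9 in tumour and was lower, with a difference of -4.34 ± 0.52. Nlrc5, the activator of class I genes, had 263, 134, 226 and 119.9 in lung and 27.2, 26.4, 2.34 and 2.45 in tumour and was lower, with a difference of -4.19 ± 0.73. The immunoproteasome genes Psmb8, Psmb9 and Psmb10 did not pass under all scalings. Class I genes are a multigene family whose reads can be split between members, which was not tested here, and lymphocyte and endothelial genes moved with them. Of 9 class II genes 5 were lower (median -1.50), beside 27.9% of all genes, with H2-Ab1 at 897, 999.8, 1074 and 859.5 in lung and 441, 367, 125 and 93.8 in tumour.

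Interferon-stimulated genes were called lower about as often as other genes. Of 22 tested 6 were lower, beside 27.9% of all genes, and none was higher, beside 6.01%. The other 16 did not pass, and the median was -1.77. The antiviral enzyme gene Oas2 had 181, 61.8, 111 and 75.5 in lung and 13.98, 18.4, 3.5 and 7.86 in tumour and was lower, with a difference of -3.26 ± 0.47. Summed over the list, lung libraries gave 4303, 1695, 3041 and 1854 and tumours 706, 2043, 386 and 639, so tumour replicate 2 overlapped lung.

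Cell cycle genes were called about as often as other genes. Of 28 tested none was higher, beside 6.01% of all genes, 8 were lower, beside 27.9%, and 20 did not pass under all scalings, with a median of -1.14, and 5 kept the call without the length trend. The proliferation marker gene Mki67 had 43.7, 59.2, 51.2 and 53.2 in lung and 11.3, 10.9, 9.82 and 12.2 in tumour and was lower, with a difference of -2.13 ± 0.17 (adjusted p = 9.64e-06), a gene with a near-identical match elsewhere. Foxm1, a factor for mitotic genes, had 11.7, 13.03, 12.8 and 19.4 in lung and 2.39, 3.07, 4.17 and 2.49 in tumour and was lower, with a difference of -1.91 ± 0.24, but not with the length trend removed (adjusted p = 0.0514). Cdk1, with 4.67, 10.95, 9.802 and 10.6 in lung and 4.81, 7.31, 16.9 and 8.59 in tumour, and Pcna, with 88.9, 93.2, 109 and 107 in lung and 95.5, 82.7, 78.2 and 66.8 in tumour, overlapped between the tissues.

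Several p53 targets were higher in tumour. Of 15 tested 7 were higher, beside 6.01% of all genes, 1 was lower and 7 passed neither way. The list median was 0.30, and all 7 stayed higher with the length trend removed, a setting that also raised the median of all genes. Cyclin G1 (Ccng1, chr11:40748552-40755311) had 80.8, 86.5, 85.7 and 86.3 in lung and 365, 342, 231 and 344 in tumour and was higher by 1.88 ± 0.16 (adjusted p = 1.77e-05), with every tumour far above every lung. The apoptosis effector gene Bax had 44, 44.9, 59.2 and 52.6 in lung and 119, 93.1, 64.8 and 82.6 in tumour and was higher by 0.80 ± 0.20. The stress cytokine gene Gdf15 had 1.44, 1.44, 2.24 and 2.09 in lung and 7.67, 5.81, 2.24 and 11.5 in tumour, higher by 1.33 ± 0.38, with tumour replicate 3 close to the highest lung. The cell cycle inhibitor gene Cdkn1a (p21) had 143, 137, 284 and 115 in lung and 331, 224, 239.6 and 249.8 in tumour, with lung replicate 3 inside the tumour range, and its difference of 0.69 ± 0.27 (adjusted p = 0.0415) was lost without lung replicate 1, 2 or 4 or tumour replicate 1, 3 or 4 (adjusted p from 0.0638 to 0.118). The other higher members were Eda2r (1.04 ± 0.26), Aen (0.64 ± 0.16) and Zmat3 (0.52 ± 0.18). By the whole column total Bax was at -0.81 and Cdkn1a at -0.95, and Ccng1 (0.24, adjusted p = 0.283) and Gdf15 (0.10, adjusted p = 0.728) lost their calls. The death receptor gene Fas was the 1 lower member, with 43.3, 41.8, 47.8 and 36.5 in lung and 13.5, 13.4, 8.88 and 7.92 in tumour and -1.89 ± 0.21.

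Mitochondrially encoded protein genes were all higher in tumour, 13 of 13, with a median of 6.62. The cytochrome oxidase genes mt-Co1, with 7570, 6100, 6935 and 7496 in lung and 843190, 638850, 858750 and 945980 in tumour, and mt-Co3, with 945, 1208, 704 and 905 in lung and 207730, 162650, 237670 and 234120 in tumour, showed no overlap, and mt-Co3 had the largest difference of any named gene, 7.82 ± 0.28 (adjusted p = 1.03e-07). Their sum, up to 2503100 in tumour, can exceed 1000000 because mt- genes are not part of the total that scales them. Of these 13 genes 9 have a near-identical nuclear copy, so the split between mitochondrion and nuclear copies is uncertain. The sum mt-Co1 plus Gm29216 still ran from 6101 to 7571 in lung and from 661000 to 983600 in tumour. All 13 remained higher when libraries were divided by the whole column total, with a median of 4.97. Among 20 nuclear-encoded subunits of the same respiratory complexes 7 were higher and none lower (median -0.05), beside 6.01% and 27.9% of all genes. This is a list of short transcripts, with a median length of 1805 bases beside 3377 over all genes. Cox6c had 49.03, 49.1, 53.3 and 57.8 in lung and 101, 132, 99.9 and 125 in tumour and Cox5a had 29.7, 33.05, 38.01 and 38.5 in lung and 73.3, 66.4, 73.1 and 90.8 in tumour, higher by 1.11 ± 0.15 and 1.10 ± 0.16, but at -0.52 and -0.51 by the whole column total. Sdha, a longer subunit gene of complex II, had 231, 221, 238 and 239 in lung and 99.4, 128, 87.4 and 101 in tumour and did not pass under all scalings.

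Ribosomal protein genes were higher, 18 of 25, with 1 lower and a median of 0.83. With the length trend removed, which also raised the median of all genes, 17 kept the call. Rpl19 had 295, 268, 309 and 313 in lung and 716, 804, 628 and 655 in tumour and was higher by 1.24 ± 0.14 (adjusted p = 5.81e-05), and Rps20 had 176, 142, 160.4 and 164 in lung and 446, 500.2, 465 and 359 in tumour and was higher by 1.45 ± 0.15. These genes are short, with a median of 1128 bases, and 18 of the 25 have a near-identical copy. The 1 lower member was Rps2, whose sum with its copy, given above, was instead higher in tumour, at 1003 to 1108 beside 497 to 570 in lung. Rps18, with 168, 164, 179.7 and 197 in lung and 10.5, 7.65, 233 and 421 in tumour, and Rpl3, with 439, 424, 456 and 486 in lung and 709, 453, 58.8 and 63.8 in tumour, split the tumours into replicates 1 and 2 against 3 and 4. By the whole column total none of the 25 was higher, and Rpl19 was at -0.41.

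Lipid synthesis genes were lower in 12 of 18 cases and higher in none, with a median of -1.85, and 9 kept the call without the length trend. The sterol and fatty acid regulator gene Srebf1 had 138, 152, 161 and 171 in lung and 15.3, 18.7, 10.6 and 8.93 in tumour and was lower, with a difference of -3.49 ± 0.22 (adjusted p = 3.96e-06). The desaturase gene Scd2 had 896, 1052, 1095 and 1063 in lung and 143, 163, 146 and 122 in tumour and was lower, with a difference of -2.83 ± 0.14. Of 22 hypoxia and glycolysis genes 3 were higher and 6 lower, beside 6.01% and 27.9% of all genes. The median was -0.45, and 9 of the list have a near-identical copy. The glucose transporter gene Slc2a1 had 35.5, 32.7, 45.04 and 41.1 in lung and 12.6, 2.64, 5.31 and 3.08 in tumour and was lower, with a difference of -2.72 ± 0.38. The 3 higher members were Aldoa (0.44 ± 0.12), Tpi1 (0.34 ± 0.12) and the mitophagy gene Bnip3 (0.81 ± 0.18), of which the last pair have such a copy. Of 12 heat shock genes 2 were higher, Hspe1 (0.69 ± 0.15) and Dnaja1 (0.91 ± 0.17), and 1 was lower, the endoplasmic reticulum chaperone gene Hspa5, with 549.7, 672, 675 and 614 in lung and 224, 160.2, 95.3 and 74.95 in tumour and -2.30 ± 0.31. The heat shock list median was -0.15, and its counts stand beside 6.01% and 27.9% of all genes. Immediate early genes, which also respond to tissue handling, were lower in 6 of 15 cases, beside 27.9% of all genes, and higher in none (median -1.34).

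**Figure D5:**
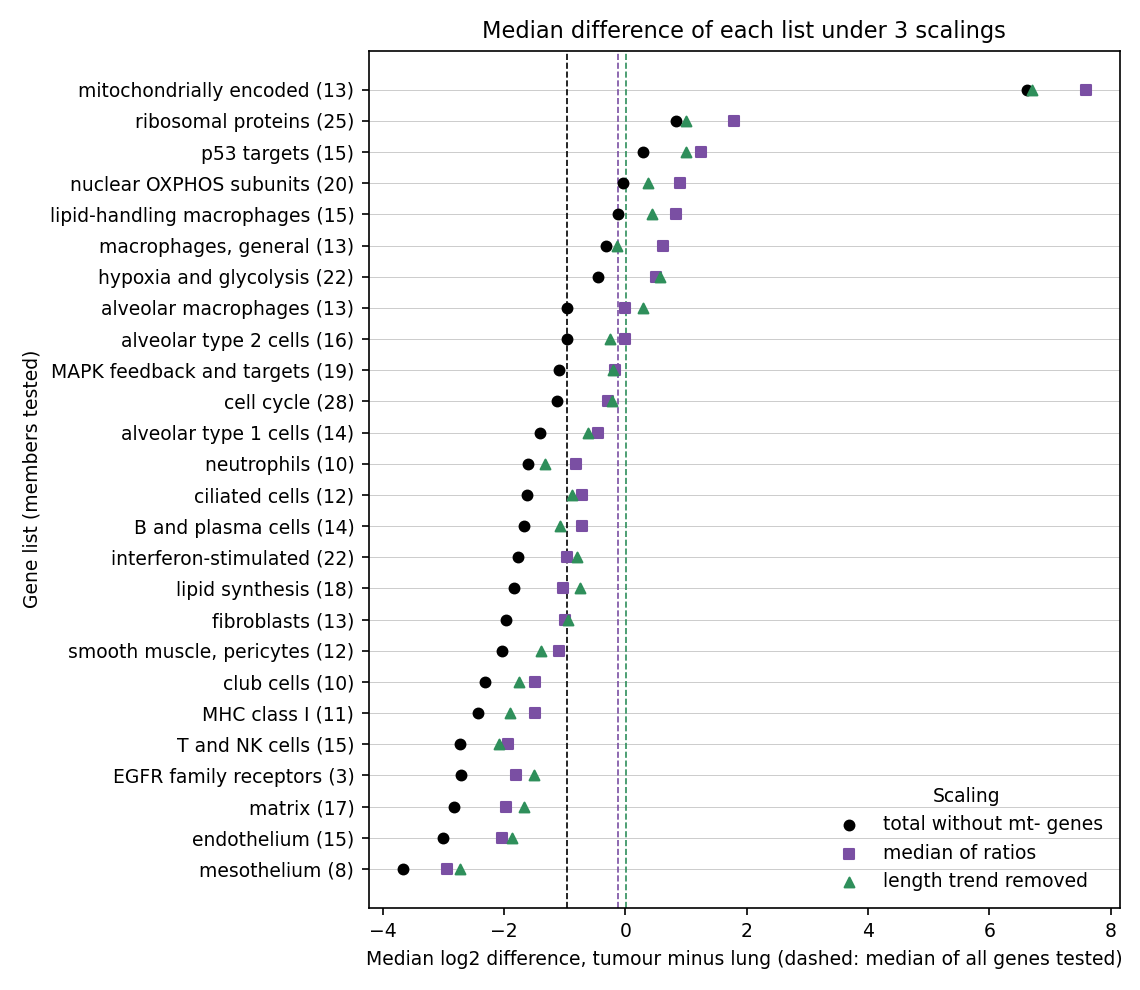
Median log2 difference (tumour minus lung) of the tested members of 26 gene lists under 3 scalings, with dashed lines at the median of all tested genes in the same colour. Mitochondrially encoded genes lie at 6.62 in the main scaling, and endothelium at -3.003 and mesothelium at -3.67 lie farthest below the line at -0.96.

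Markers of other tissues varied between single libraries. Heart muscle genes, none of 8 tested called (median -0.87), summed to 100.2, 42.3, 185 and 57.0 in lung and 22.4, 202, 20.8 and 10.7 in tumour. Of 5 tested hepatocyte genes 3 were higher in tumour (median 1.16), with albumin (Alb) at 3.84, 1.68, 2.42 and 1.72 in lung and 99.9, 7.54, 18.5 and 11.8 in tumour and the most in tumour replicate 1. All 15 listed hepatocyte genes, however, summed to 250 to 361 in lung and 111 to 301 in tumour, so the list as a whole was not higher in tumour. Thymocyte genes were lower in 4 of 4 tested cases (median -2.71), beside 27.9% of all genes, and the recombinase gene Rag1, with 69.2, 7.66, 1.29 and 5.99 in lung and listed at 0 in all tumours, was highest in lung replicate 1. Only these 4 of 8 listed genes passed the filter on low values. A gene near 0 in tumour, such as Rag1, can pass that filter only through lung, so this count says little. Of 9 red cell genes 1 was lower (median -1.54), with tumour replicate 3 at 244 in sum beside 2283 to 5585 in the other tumours. Both tested fat cell genes, of 10 listed, were lower (median -2.79), with the same limit from the filter, and none of 4 skeletal muscle genes (median -0.31) or 5 nerve genes (median -0.81) was called. Of the nuclear RNAs listed as a sign of RNA fraction, 1 of 11 matched the table, Snhg11, with 60.6, 45.3, 43.3 and 43.5 in lung and 8.29, 3.66, 12.3 and 9.55 in tumour, and it was lower. The part of such tissue in the results was not tested.

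Over all called genes, in the lists or not, the naming rule gave the 12 largest differences each way, with predicted and clone names such as Gm28661 left out. Upwards these were 11 mt- genes and Nudt14, a nucleotide sugar hydrolase gene, with 36.6, 51.4, 33.2 and 41.6 in lung and 4416, 2669, 4182 and 4699.5 in tumour and a difference of 6.57 ± 0.21. Nudt14 has no near-identical copy by the criterion used. Downwards, beside Rps2, Rpl29 and Rps7, they held 3 class I-like genes, H2-T23 (-6.65 ± 1.23), H2-Q7 (-5.73 ± 0.54) and H2-Q6 (-5.11 ± 0.52), whose family members are alike in sequence. H2-T23 had 863, 497, 929 and 511 in lung and 1.95, 156, 0.345 and 2.201 in tumour, so tumour replicate 2 stood far above the other tumours. The matrix protein gene Spon2 had 90.3, 144, 58.5 and 146 in lung and 1.504, 0.763, 0.186 and 0.547 in tumour and was lower, with a difference of -5.94 ± 0.34, the TGF-beta binding protein gene Ltbp4 had 849, 1007, 978 and 1134 in lung and 20.97, 84.8, 18.5 and 12.7 in tumour, and tenascin X (Tnxb) was lower, with a difference of -4.81 ± 0.51. Adcy4, an adenylate cyclase gene, had 198, 219.6, 284 and 224 in lung and 7.88, 13.1, 7.21 and 1.19 in tumour and was lower, with a difference of -5.06 ± 0.48. Glp1r, the receptor for the incretin GLP-1, had 186, 219, 186 and 225 in lung and 23.4, 17.8, 3.57 and 0.218 in tumour, with tumour replicates 3 and 4 the lowest. Trim12a was lower, with a difference of -5.13 ± 0.33.

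The same tumour minus lung difference was set beside that under the 2 circuits that carry an siRNA against EGFR, CMV-siRE and CMV-GE11-siRE, the latter with an EGFR-binding peptide, in 1 fit of 24 libraries and 15836 genes. Both comparisons use the same CMV-scrR libraries. Under CMV-siRE the difference was larger for 137 genes (0.865%) and smaller for 35 (0.221%), and under CMV-GE11-siRE it was larger for 5916 (37.4%) and smaller for 636 (4.02%), in all 1.09% and 41.4% of genes. Larger here means a more positive signed difference. The balance of the 2 directions under CMV-GE11-siRE depended on the scaling, with 2870 larger and 2852 smaller by the median of ratios, 3370 and 2198 without the 11 matching genes, and 11600 and 88 by the whole column total. With the same call under the scalings without mt- genes, without the matching genes and by the median of ratios the counts were 120 (0.758%) and 32 (0.202%) for CMV-siRE, and 2870 (18.1%) and 635 (4.01%) for CMV-GE11-siRE. The CMV-siRE count rested on single libraries, since it was 2154 without CMV-siRE tumour replicate 3, 645 without CMV-siRE tumour replicate 2, 417 without CMV-scrR tumour replicate 4 and between 56 and 85 without any 1 of the 8 CMV-scrR and CMV-siRE lung libraries. It was 113 without CMV-scrR tumour replicate 2, and 102 and 107 without CMV-siRE tumour replicates 1 and 4.

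Erbb2 was lower in tumour than in lung under CMV-scrR. Under CMV-siRE it had 51.85, 51.07, 48.69 and 50.56 in lung and 102, 43.2, 9.03 and 64.6 in tumour, on both sides of lung. The difference of differences was 2.41 ± 0.59 (adjusted p = 0.0487), which did not pass by the whole column total (adjusted p = 0.109). Under CMV-GE11-siRE the change for Erbb2 was 3.56 ± 0.59 (adjusted p = 0.000155). Mitochondrial genes under CMV-GE11-siRE took 8.04% to 37.9% of the tumour totals, and mt-Nd5 changed by -3.92 ± 0.62. Atp13a4, a cation transport ATPase gene, had the largest change by the rule under both circuits, 4.03 ± 0.99 and 6.15 ± 0.99, the former without passing by the whole column total (adjusted p = 0.109). Alb had the smallest under CMV-GE11-siRE, -5.27 ± 0.85, and Saa3, an acute phase gene, under CMV-siRE, -4.39 ± 0.83. Saa3 differed mainly in lung, with 43.7 to 133 under CMV-siRE and 5.54 to 6.32 under CMV-scrR. In tumour it had 0.993 to 5.47 and 0.933 to 22.7, which overlap. Under CMV-GE11-siRE, Alb had 3.59, 11.4, 4.30 and 25.6 in lung and 0.173, 1.04, 0.496 and 0.787 in tumour, so both tissues enter its change. Under CMV-GE11-siRE, Abca3 (3.60 ± 0.58), Vegfa (4.02 ± 0.75) and Srebf1 (4.04 ± 0.58) had positive changes, and Erg (-3.44 ± 0.48) a negative one. The former genes were named for their low difference under CMV-scrR, and the same libraries enter here, which favours positive changes. Among all genes 18.1% were larger and 4.01% smaller under 3 scalings.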

How the data were processed

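Total RNA was extracted with TRIzol and sequenced as Illumina TruSeq libraries, per the labels' protocols. The deposited tables hold a normalised read signal per gene, 1 table a tissue, and DESeq2 is named per the submitters' processing notes without a version. The sources used here do not state the aligner, counter, strand setting or genome build. Gene identifiers match GENCODE M21, from which lengths and positions were taken, and copies were found with blastn 2.17.0 at 95% identity over at least 200 bases and 50% of the shorter transcript (mitochondrial matches: 95%, 100 bases).

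Columns were rescaled to 1000000 without mt- genes. Genes at 1 or more in at least 4 of the 8 libraries were tested on log2(value + 1) with limma 3.58.1 in R 4.3.3, with a mean-variance trend, no covariates and Benjamini-Hochberg adjustment at 0.05. A pseudocount of 1 understates changes of low genes. The differences between circuits used 1 fit of 24 libraries. The scripts were tested on simulated data. A trend with length was removed in each library by a lowess with a span of 0.3.

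The lists and members were chosen with earlier results of these data known. Named genes are the 12 largest and 12 smallest differences among called genes with a mean of 10, separated libraries and no clone name, up to 4 called members of each list with the largest differences or, for small lists, the highest levels, and the 4 largest and 4 smallest differences between circuits. Chosen outside this rule, after their values were seen, were Aen, Ager, Akap5, Aldoa, Areg, Bax, Bnip3, C1qa, Ccnd1, Cdk1, Cdkn1a, Dusp6, Erg, Hbegf, Hopx, Ighm, Krt18, Lgals3, Pcna, Pecam1, Rpl3, Rps18, Rtkn2, Scgb1a1, Sftpc, Sox9, Tpi1, Trem2, Vim and Zmat3. Alternatives were another pseudocount, no filter on low values, 4 other scalings, a replicate block, more libraries in the fit, the length trend and leaving libraries out. The scaling without mitochondrial matches, the length trend and the joint removal of tumour replicates 3 and 4 were chosen after seeing the data.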

Additional observations from a re-analysis of the deposited data

Results flagged for a closer look

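Single libraries stood apart from the other 3 of their tissue in 20 of the 246 groups of 4 tested (Dixon's test), where chance gives about 1 in 20. Values are normalised values as above. In tumour replicate 2 the stromal genes Pdgfra (85.5), Pdgfrb (37.4) and Col1a1 (89.7), the granzyme gene Gzma (28.8), the class I-like gene H2-T23 (156), and the matrix genes Ltbp4 (84.8) and Tnxb (21.6) were high, as were the sums of the fibroblast list (3775), the smooth muscle and pericyte list (762) and the heart muscle list (202). In the same library mt-Nd1 was low at 120290. Tumour replicate 1 was high in Alb (99.9), Msln (12.5) and the B and plasma cell list (1309.8 in sum). Among the lung libraries replicate 3 was high in Csf1r (458) and Cdkn1a (284), replicate 4 in Foxm1 (19.4) and Rps7 (376), and replicate 1 in Rag1 (69.2), while Ccng1 was low in replicate 1 (80.8).

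The tumour minus lung difference itself differed between circuits for some of the 102 genes followed across settings, with the same call under 3 scalings. Many of these genes were chosen by their difference under CMV-scrR, and the same CMV-scrR libraries enter here, so the counts depend on that choice. Under CMV-siRE 2 of them differed from CMV-scrR, Erbb2 (2.41) and Alb (-3.55), in log2 units. Neither passed by the whole column total (adjusted p = 0.109 and 0.0868). Among all genes 0.758% were larger and 0.202% smaller under CMV-siRE. Under CMV-GE11-siRE 37 of the 102 differed, beside 18.1% of all genes larger and 4.01% smaller. Of the mitochondrial genes these were mt-Co3 (-3.49), mt-Co1 (-3.73), mt-Nd1 (-3.70), mt-Nd3 (-3.23) and mt-Cytb (-3.51). Of alveolar and epithelial genes they were Sftpc (3.20), Sftpa1 (2.64), Abca3 (3.6), Slc34a2 (3.28), Lpcat1 (3.25), Ager (2.41), Col4a3 (1.89), Gprc5a (3.31), Akap5 (-1.64) and Cdh1 (2.47). Of the EGFR family and its signalling they were Erbb2 (3.56), Erbb3 (3.36), Ereg (3.23), Areg (3.20), Adam17 (2.19), Hbegf (1.71), Etv4 (3.75) and Il6ra (2.61). Erg (-3.44) was the endothelial one. Of presentation and interferon genes they were H2-K1 (2.20), Tap1 (2.70) and Oas2 (2.79). The cell cycle and p53 genes Foxm1 (2.46) and Ccng1 (-0.78) differed too. By the whole column total the change was 0.55 for Ccng1 (adjusted p = 0.0887) and -0.31 for Akap5 (adjusted p = 0.509), so Ccng1 turned its sign and both lost their calls. Of metabolic and stress genes they were Vegfa (4.02), Slc2a1 (2.67), Srebf1 (4.04), Scd2 (1.98) and Hspa5 (1.87). Alb (-5.27), Nudt14 (-3.58) and Trim12a (1.35) complete the 37.

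Human EGFR, which entered no comparison of the tissues, had a signal in every tumour library, the lowest of the 4 under CMV-scrR being 255.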

How the results depend on the processing

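Counts of genes by setting are given before the joint rule on scalings. Against 875 higher and 9189 lower genes (10064 in all), scaling by the whole column total gave 135 and 13995, without predicted and clone names 2618 and 5177, by the median of ratios 3480 and 4064, without the mitochondrial matches 2483 and 5351, and with the length trend removed 3754 and 3406. A pseudocount of 0.1 gave 862 and 8998, no filter 994 and 9965, 24 libraries in the fit 939 and 9546, and leaving out tumour replicates 3 and 4 together 1213 and 8234. Leaving out 1 library gave 725 to 946 higher and 8191 to 9822 lower (8938 to 10720 in all). Of the 875 and 4064 genes called under all 4 scalings, 720 to 822 and all 4064 kept their call without any 1 library. These fits used the main scaling, in which 9189 genes were lower, so the 4064 had a wide margin. Their retention is therefore a weak check on single libraries.

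Deviations of same-numbered lung and tumour libraries from their tissue means correlated at 0.07, -0.06, -0.14 and 0.11. Those of other pairs ran from -0.127 to 0.155. Such weak values from 2 tissues cannot tell whether shared numbers mean 1 mouse. With the replicate block, 796 genes were higher and 8900 lower, and 775 of the 875 and all 4064 kept their call. The block fit used the main scaling too, with the same margin for lower genes.

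For CMV-siRE against CMV-scrR, 172 genes differed (137 larger, 35 smaller), 103 without the filter, 21 by the whole total (15, 6), 501 by the median of ratios (301, 200), 283 without the mitochondrial matches (188, 95), 37 with the replicate block, and 56 to 2154 without 1 library. For CMV-GE11-siRE, 6552 differed (5916 larger, 636 smaller), 11688 by the whole total (11600, 88), 5722 by the median of ratios (2870, 2852), 5568 without the mitochondrial matches (3370, 2198), and 5867 to 7096 without 1 library.

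Of 1836 values of 102 genes under other settings, 1758 kept their side of the threshold. These include sign changes where neither value passed, such as Dusp6 (-0.007) and C1qa (0.21) without 1 library. A further 49 lost and 13 gained significance, and 16 changed sign with at least 1 of the 2 values passing. By the median of ratios Sftpc was at 0.11, and without tumour replicates 3 and 4 C1qa was at 0.77 (-0.60 without replicate 2 alone). By the whole column total Akap5 was at -0.80, Krt18 -0.73, Lgals3 -0.77, Sox9 -0.11, Ccnd1 -0.82, Dusp6 -1.55, Erg -1.09, Trem2 -0.35, Cdkn1a -0.95, Bax -0.81, Rps20 -0.20, Rpl19 -0.41, Cox6c -0.52 and Cox5a -0.51. Low values in tumour are limited by its lower depth.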
